A study of Zea mays with 6 samples.

Results

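In this RNA-seq series of maize kernels, 30 genes stood apart in replicate 3 of both the control and the transgenic group. They were chosen from the deposited FPKM values themselves (fragments per length of gene and per mapped fragments in that library). A gene was taken when its mean over the 6 libraries was at least 5 FPKM and both replicate 3 libraries reached at least 1.5 times the highest of the other 4 libraries, or lay at most at the lowest of these 4 divided by 1.5. The 6 IDs from Zm00001d048847 to Zm00001d048852, of which 2 met these limits, were left out beforehand, and no gene was lost for groups that did not overlap. Of 33051 listed genes 12717 could be taken, and 10 formed a raised set (0.0786%) and 20 a lowered set (0.157%). All values that separate replicate 3 from replicates 1 and 2 in these 30 genes are therefore a description of the choice, and no test was made on them.

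The libraries came from whole kernels of the inbred line KN5585 at 10 days after pollination. 3 were made from kernels labelled ZmSUS1 transgenic, from 1 selected transgenic strain, and 3 from its non-transgenic negative control, labelled normal. The sources used here do not name the promoter that drives the transgene, nor the plant, ear, day or sequencing run behind a replicate number, so a p-value measures the spread between these libraries only. SUS1 (Zm00001d047253), a sucrose synthase and the gene named for the transgene, stood at 214, 210.2 and 221 FPKM in controls 1 to 3 and at 155, 149 and 159.8 FPKM in transgenic 1 to 3. Its level was lower in the libraries labelled transgenic (limma log2 fold change -0.47, standard error 0.050, adjusted p = 0.000759). In the same fit the median log2 fold change over the 12717 genes was -0.14, and no rescaled value is given for SUS1. The lower level goes against the labelled overexpression, so groups are named by label throughout. In SUS1 itself replicate 3 was at 1.04 times the mean of replicates 1 and 2 in the controls and at 1.05 times in the transgenic libraries. The ID of SUS1 was set beforehand and could not be checked here, since the files pair no nuclear ID with a symbol.

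A maize kernel joins tissues of different origin. The embryo and the endosperm, which stores starch and zein proteins, come from fertilization, while the pericarp and the nucellus belong to the mother plant. The age named by the labels falls when the endosperm turns from cell division to storage. Gene roles could not be added to this background for the 30 genes: 0 of the 32852 nuclear IDs, and so none of the members, had a match in the RefSeq gene table, and the files give IDs alone. Markers of embryo, aleurone, transfer cells or maternal tissue could not be found in the tables for the same reason, so their part in the results was not tested, and fewer cells of a type cannot be told apart from less RNA per cell.

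The raised set was led by 3 genes that were low or listed at 0 outside replicate 3. Zm00001d047493 was listed at 0 in controls 1 and 2 and stood at 14.7 FPKM in control 3, against 1.35, 0.92 and 19.3 FPKM in transgenic 1 to 3. For Zm00001d046854 the values were 1.31, 0 and 19.6 FPKM in the controls and 0, 1.67 and 17.7 FPKM in the transgenic libraries. Zm00001d036871 had 3.11, 0 and 32.3 FPKM in the controls and 1.11, 0 and 38.2 FPKM in the transgenic libraries. In each of these 3 genes the lower replicate 3 library was over 10 times the highest of the other 4 (10.9, 10.6 and 10.4 times).

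A second pair of raised genes was present in all libraries, and their lower replicate 3 library was about 3 times the highest of the other 4. Zm00001d033364 measured 7.94, 9.42 and 53.1 FPKM in the controls and 17.6, 11.9 and 61.4 FPKM in the transgenic libraries. Zm00001d041939 measured 8.84, 6.94 and 28.7 FPKM in the controls and 8.75, 3.65 and 27.8 FPKM in the transgenic libraries. The gap between the lower replicate 3 library and the highest other library was 3.02 times in Zm00001d033364 and 3.14 times in Zm00001d041939. Relative to the mean of replicates 1 and 2, replicate 3 of Zm00001d033364 was 6.12 times higher in the controls and 4.16 times in the transgenic libraries. For Zm00001d041939 these ratios were 3.64 and 4.48 times. The most abundant raised gene, Zm00001d023601, had 36.2, 34.2 and 109 FPKM in the controls and 16.6, 18.9 and 57.6 FPKM in the transgenic libraries, so both groups were about 3 times higher in replicate 3 (3.10 and 3.25 times the mean of replicates 1 and 2) while the transgenic libraries lay lower at every number. The 4 remaining raised genes, Zm00001d023793, Zm00001d043115, Zm00001d023671 and Zm00001d036100, had means of 5.20 to 7.98 FPKM. Zm00001d023793 was the most uneven of these outside replicate 3, with 0.06 and 4.37 FPKM in controls 1 and 2 and 2.55 and 5.05 FPKM in transgenic 1 and 2, against 12.3 and 11.1 FPKM in control 3 and transgenic 3.

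**Figure D1:**
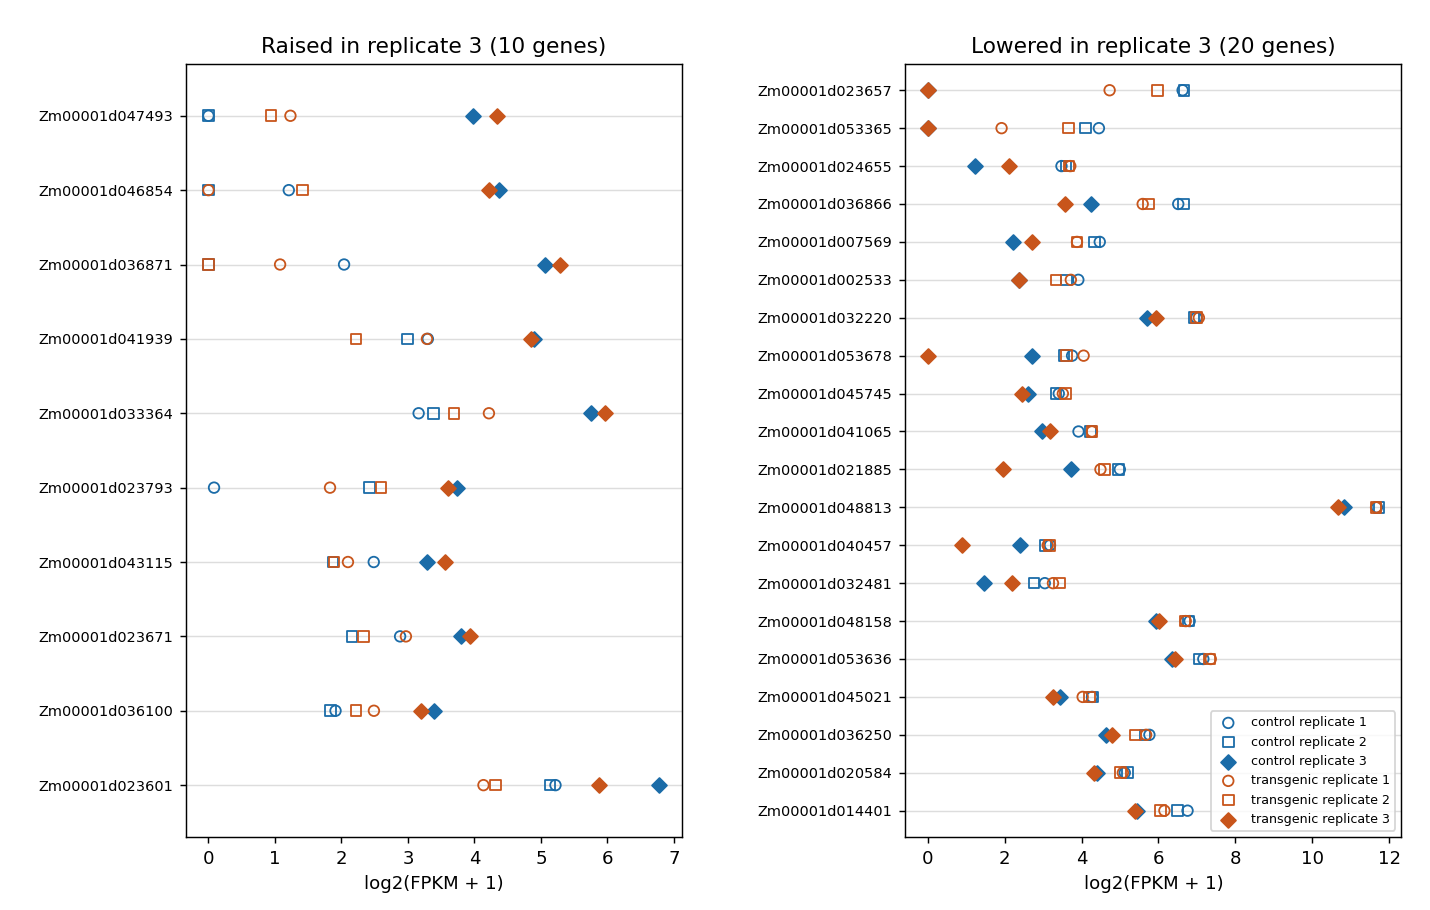
Level of each of the 30 genes in each library, as log2(FPKM + 1), with the raised genes on the left, the lowered genes on the right and 1 point per library. Filled diamonds are replicate 3, open circles and squares are replicates 1 and 2; Zm00001d023657 and Zm00001d053365 lie at 0 in both replicate 3 libraries.

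The lowered set was led by 2 genes that are listed at 0 in both replicate 3 libraries. Zm00001d023657 had 97.9 and 100.3 FPKM in controls 1 and 2 and 25.5 and 61.9 FPKM in transgenic 1 and 2, and was listed at 0 in both replicate 3 libraries. Zm00001d053365 had 20.9 and 16.1 FPKM in controls 1 and 2 and 2.78 and 11.6 FPKM in transgenic 1 and 2, and was also listed at 0 in both. These 2 were the only genes averaging 5 FPKM or more that the tables list at 0 in both replicate 3 libraries, and both also had their lowest other value in transgenic 1. At this level few genes are listed at 0 in any library, from 1 gene in control 1 to 7 genes in transgenic 3.

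Other lowered genes stayed present in replicate 3 at a small part of their level. Zm00001d036866 measured 90.4, 99.3 and 18.0 FPKM in the controls and 47.1, 52.5 and 10.9 FPKM in the transgenic libraries, which put replicate 3 at 5.27-fold and 4.58-fold below the mean of replicates 1 and 2. Zm00001d024655 had 10.1, 11.1 and 1.35 FPKM in the controls and 12.1, 11.8 and 3.31 FPKM in the transgenic libraries. Zm00001d007569 had 21.2, 19.2 and 3.61 FPKM against 13.7, 13.7 and 5.59 FPKM. In Zm00001d036866 the size of the drop was nearly shared by the groups, whereas in Zm00001d024655 it was 7.86-fold in the controls and 3.60-fold in the transgenic libraries, and in Zm00001d007569 5.59-fold and 2.45-fold. The opposite order appeared in Zm00001d021885, with 30.9, 30.0 and 12.2 FPKM in the controls and 21.5, 23.3 and 2.85 FPKM in the transgenic libraries, and in Zm00001d040457, with 8.05, 7.32 and 4.30 FPKM against 7.68, 7.94 and 0.86 FPKM. Zm00001d053678 was listed at 0 in transgenic 3 alone, beside 5.50 FPKM in control 3 and 10.7 to 15.6 FPKM in the other 4 libraries. With 1 replicate 3 library in each group, whether the drop differs between groups cannot be tested.

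The lowered set also held more abundant genes. Zm00001d048813 was by far the highest, at 3287, 3402 and 1828 FPKM in the controls and 3236, 3220.5 and 1617 FPKM in the transgenic libraries, and its 4 libraries outside replicate 3 differed by 1.06 times at most. Zm00001d053636 measured 143, 134 and 81.1 FPKM in the controls and 163, 159 and 84.9 FPKM in the transgenic libraries. Zm00001d032220 measured 126, 121 and 51.2 FPKM in the controls and 132, 126 and 60.7 FPKM in the transgenic libraries. All 3 lay well below their other libraries in replicate 3 of both groups, by 1.70-fold to 2.41-fold. Zm00001d048158 (111, 109 and 60.1 FPKM against 104, 102 and 64.1 FPKM) and Zm00001d014401 (107, 89.4 and 42.6 FPKM against 70.2, 65.2 and 40.8 FPKM) were 1.61-fold to 2.31-fold lower in replicate 3. The other 7 lowered genes, Zm00001d002533, Zm00001d045745, Zm00001d041065, Zm00001d032481, Zm00001d045021, Zm00001d036250 and Zm00001d020584, had means of 6.11 to 40.7 FPKM and drops of 1.69-fold to 3.70-fold.

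Over all 6 libraries the raised genes averaged 5.20 to 45.4 FPKM and the lowered genes 6.03 to 2765 FPKM. Several raised genes reached the minimum of 5 FPKM only through replicate 3, so the sets' levels follow in part from the choice and are not compared. The 2 replicate 3 libraries differed from each other by 1.16 times in the median raised gene, by 1.15 times in the median lowered gene and by 1.16 times in the median of all genes. Summed over the raised genes, FPKM was 71.2, 63.6 and 301 in the controls and 62.7, 52.5 and 266 in the transgenic libraries. The lowered genes summed to 4216, 4296 and 2179 FPKM in the controls and to 3998, 4005 and 1965 FPKM in the transgenic libraries, at most 0.316% of a library's FPKM, and without Zm00001d048813 to 929, 894 and 351 FPKM and to 762, 785 and 348 FPKM.

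The limit of 1.5 cut through a gradual tail on the lowered side. Just inside lay Zm00001d014401, at 1.53 times, and Zm00001d020584, at 1.56 times (33.9, 35.7 and 20.03 FPKM in the controls, 32.7, 31.2 and 18.9 FPKM in the transgenic libraries). Just outside lay Zm00001d033003, with 10.1, 9.13 and 5.99 FPKM against 8.98, 11.6 and 5.57 FPKM, and Zm00001d005247, with 8.21, 6.69 and 4.11 FPKM against 6.35, 6.06 and 4.07 FPKM (1.499 and 1.47 times). On the raised side Zm00001d023601 (1.59 times) and Zm00001d036100 (1.77 times) were just inside, and Zm00001d003680 (28.9, 31.4 and 59.9 FPKM against 38.0, 40.1 and 85.8 FPKM) and Zm00001d029841 (9.34, 10.5 and 18.9 FPKM against 8.61, 11.03 and 15.9 FPKM) just outside at 1.49 and 1.44 times. Without any minimum fold, both replicate 3 libraries lay above the other 4 in 582 genes (4.58%) and below them in 963 (7.57%). At a fold of 1.2 these were 43 and 83 genes, and at a fold of 3 they were 5 and 3.

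Across all 12717 genes the departure of replicate 3, as the difference in log2(FPKM + 1) from the mean of replicates 1 and 2, had a median of -0.036 in the controls and -0.013 in the transgenic libraries. The departures in the 2 groups, which share no library, correlated across genes at 0.41 with the 30 members and at 0.25 over the 12687 genes without them. Genes are not independent replicates and all share the same 6 libraries, so these values only describe the tables.

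**Figure D2:**
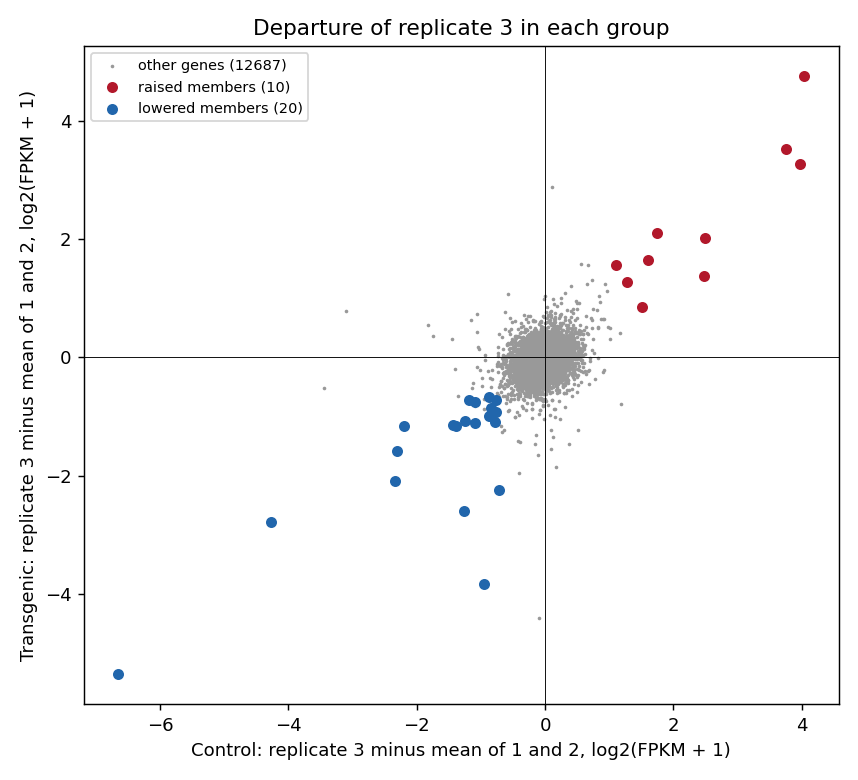
Departure of replicate 3 from the mean of replicates 1 and 2, in log2(FPKM + 1), in the control group (horizontal axis) and in the transgenic group (vertical axis), 1 point per gene. The 10 raised genes (red) and the 20 lowered genes (blue) lie at the edge of the cloud of the 12687 other genes or beyond it, in the same direction in both groups, as their choice requires.

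The profiles most like the mean profile of each set, by Pearson correlation of log2(FPKM + 1) over the 6 libraries, belonged to genes with much smaller differences. For the raised set these were Zm00001d049155 (r = 0.99; 53.7, 52.3 and 63.6 FPKM in the controls, 52.4, 51.9 and 63.9 FPKM in the transgenic libraries), Zm00001d050716 (r = 0.99) and Zm00001d016675 (r = 0.98). For the lowered set they were Zm00001d052985 (r = 0.99; 13.9, 14.1 and 10.9 FPKM against 13.7, 13.6 and 10.9 FPKM), Zm00001d024027 (r = 0.99) and Zm00001d037873 (r = 0.98). In none of these 6 genes did replicate 3 pass the others by more than 1.29 times.

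ID numbers, which the choice did not use, placed some members near each other. Within 5 ID numbers of each other lay 1 pair, the lowered Zm00001d036866 and the raised Zm00001d036871, so 2 of 30 members (6.67%) had another member that near, while 0.631% of the other genes at this level had one. Within 50 ID numbers it was 6 of 30 members (20%) against 5.01% of the other genes, through Zm00001d023657 with Zm00001d023671 and Zm00001d053636 with Zm00001d053678. Within 200 it was 10 of 30 (33.3%) against 17.8%. These shares rest on few pairs, only 1 of them within 5 ID numbers, and no conclusion is drawn from them. No genome build is given for these IDs, so their order is used here only as an order of numbers.

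Most neighbours of the members did not share their departure. The 80 other genes averaging 5 FPKM or more within 5 ID numbers of a member had median departures of -0.036 (control) and -0.0082 (transgenic), beside -0.036 and -0.013 over all 12717 genes. Only Zm00001d048818 departed by at least 0.5 in the same direction in both groups, which is 1.25% of the 80 neighbours against 0.684% of all 12717 genes. The 12717 genes include the 30 members, which all departed that far, so the share over all genes is raised by the chosen genes. Zm00001d023657, listed at 0 in replicate 3, had Zm00001d023658 beside it at 7.89, 8.07 and 6.65 FPKM in the controls and 5.03, 4.58 and 4.99 FPKM in the transgenic libraries.

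In 3 stretches, chosen after their values were seen, genes with nearby IDs departed in opposite directions. Between Zm00001d036866 and Zm00001d036871 no gene averaging 1 FPKM or more is listed. The next ID, Zm00001d036872, had 2.51, 2.64 and 0.85 FPKM in the controls and 1.03, 0.88 and 0.36 FPKM in the transgenic libraries. It was thus low in replicate 3, as was Zm00001d036866, while Zm00001d036871 was high. Next to the lowered Zm00001d053365 lay Zm00001d053364, with 0.28, 0.74 and 5.71 FPKM in the controls and 2.76, 2.61 and 8.34 FPKM in the transgenic libraries. Outside replicate 3 the 2 genes did not mirror each other in the transgenic libraries. Zm00001d053365 had 2.78 and 11.6 FPKM in transgenic 1 and 2, whereas Zm00001d053364 was nearly level there, at 2.76 and 2.61 FPKM. The third stretch was the run of very abundant IDs around Zm00001d048813. There Zm00001d048807 had 2847, 2942 and 5214 FPKM in the controls and 4301, 4097 and 8004 FPKM in the transgenic libraries, or 1.80 and 1.91 times higher in replicate 3, and Zm00001d048818 had 3839, 4004 and 2345 FPKM against 4803, 4684 and 3131 FPKM, or 1.67-fold and 1.51-fold lower. Zm00001d048812, next to Zm00001d048813 by ID, had 16308, 16614 and 18212 FPKM against 16655, 16405 and 17853 FPKM, or 1.11 and 1.08 times higher in replicate 3. The sources used here do not say how reads shared by similar genes were assigned, and its part in these opposite departures was not tested. None of the 30 members had values identical to those of another gene.

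**Figure D3:**
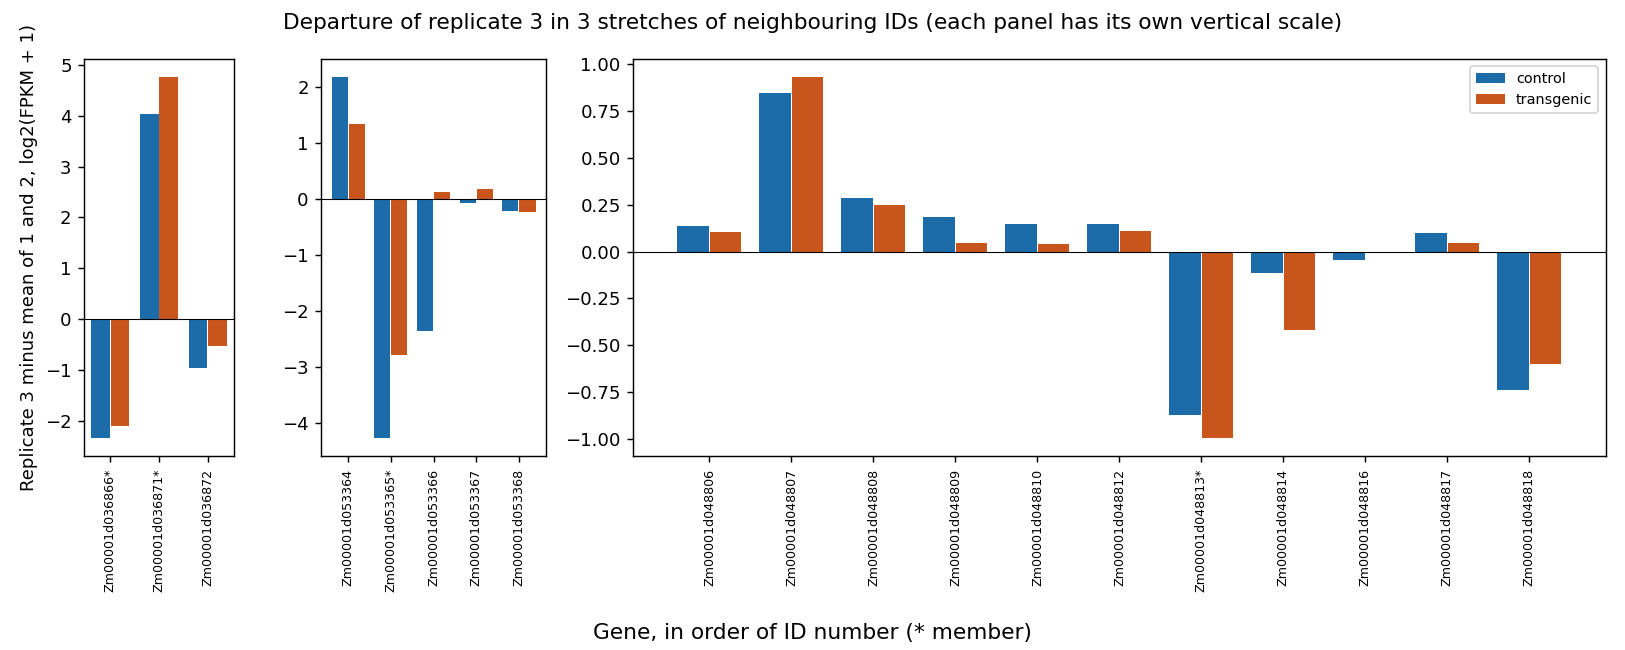
Departure of replicate 3 from the mean of replicates 1 and 2, in log2(FPKM + 1), for genes averaging 1 FPKM or more in 3 stretches of ID numbers; bars are single differences in control (blue) and transgenic (orange), and the panels have their own vertical scales. In each stretch a member (star) departs the opposite way from a gene with a nearby ID, as Zm00001d036866 and Zm00001d036871 do.

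The choice of genes asked for groups that overlap, and having both replicate 3 libraries beyond the other 4 already forces this, but it did not ask in which direction the groups differ within a number. Fitted over all 20514 genes that averaged 1 FPKM or more, limma called 3907 genes (19%) at the threshold of 0.05 on the adjusted p, of which 591 (2.88%) were higher and 3316 (16.2%) lower, and 0 of the 30 members, with 0 at an unadjusted p under 0.05. The choice puts a wide spread inside each group, which this fit counts as error, so the 0 says nothing about the members. With the replicate number as a block 4469 genes (21.8%) were called, 716 higher (3.49%) and 3753 lower (18.3%), and 5 of the 30 members (16.7%). Among the 12717 genes the rule could take, 27.4% were called. The rule compares libraries across groups, so it leaves out genes whose group difference is large beside their replicate 3 departure. The members' shares called, here and in the fits that follow, are therefore shaped by the choice. They are not like for like with the shares of other genes, and no conclusion is drawn from them. With a term for number 3 alone 8 of the 30 members were called, against 23.7% of all 20514 genes and 29.4% of the 12717, and the 5 were among them. With the block and median-ratio rescaling together 7 of the 30 were called, against 15.2% of all genes and 18.9% of the 12717, and with replicate 3 of both groups left out 7 of the 30, against 14.1% and 18%.

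Of these 5 members, 2 lay well below their control at every number. Zm00001d023601, from the raised set, stood at 0.457, 0.553 and 0.528 times the control in replicates 1 to 3, lower in 3 of 3, with a log2 fold change of -0.94 and a standard error of 0.067 (limma with replicate block, adjusted p = 0.000429; 0.260 without the block). Zm00001d036866, from the lowered set, stood at 0.521, 0.529 and 0.604 times the control, lower in 3 of 3, with a log2 fold change of -0.84 and a standard error of 0.067 (limma with replicate block, adjusted p = 0.000615; 0.462 without). In these genes the group difference was of like size in replicate 3 and in replicates 1 and 2. Both also passed without replicate 3 of both groups (limma, adjusted p = 0.00211 and 0.00161). Over 17 alternatives the limma adjusted p ranged from 8.31e-05 to 0.589 for Zm00001d023601 and from 0.000279 to 0.909 for Zm00001d036866, and each passed in 4, the 3 fits with a block and the fit without replicate 3.

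The other 3 called members rested on weaker or uneven differences. Zm00001d032481 (7.24, 5.79 and 1.76 FPKM in the controls, 8.55, 9.72 and 3.58 FPKM in the transgenic libraries) was higher in 3 of 3, with a log2 fold change of 0.53 and a standard error of 0.13 (limma with replicate block, adjusted p = 0.0316; 0.431 without). Zm00001d047493 was also higher in 3 of 3, with a log2 fold change of 0.85 (limma with replicate block, adjusted p = 0.0215; 0.660 without), but its values in replicates 1 and 2 were 0 to 1.35 FPKM. Zm00001d014401 was lower, at 0.656 and 0.729 times the control in replicates 1 and 2 and at 0.959 in replicate 3, with a log2 fold change of -0.37 (limma with replicate block, adjusted p = 0.0432; 0.469 without). With the block and median-ratio rescaling together it no longer passed (limma, adjusted p = 0.166). Over the same 17 alternatives the limma adjusted p ranged from 0.0178 to 0.928 for Zm00001d032481, from 0.0117 to 0.943 for Zm00001d047493 and from 0.0172 to 0.860 for Zm00001d014401, passing in 3, 4 and 3 of them.

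For the other 25 members the group difference did not pass with the block (limma, adjusted p from 0.0520 to 0.975), and 15 of them had a log2 fold change within 0.25 of zero. Over the whole sets the median log2 fold change between the groups was 0.076 for the raised and -0.13 for the lowered genes, beside -0.14 for all 12717 genes. After median-ratio rescaling, which moved the median of all 12717 genes to 0.0012, these medians were 0.18 and 0.0055. At all 3 numbers the transgenic library lay below its control in 9 of 30 members (30.0%), against 49.5% of all 12717 genes, and above it in 8 of 30 (26.7%), against 11.9%. These counts pair libraries by number, which no label states, and a pair with both libraries at 0 counts in neither direction. A library was listed at 0 in 30% of the raised and 15% of the lowered genes, but in 0.118% of all 12717 genes. The choice itself favours genes with such values. It also leaves out genes whose group difference is large beside their replicate 3 departure. For these reasons the shares are not like for like, and no conclusion is drawn from them.

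**Figure D4:**
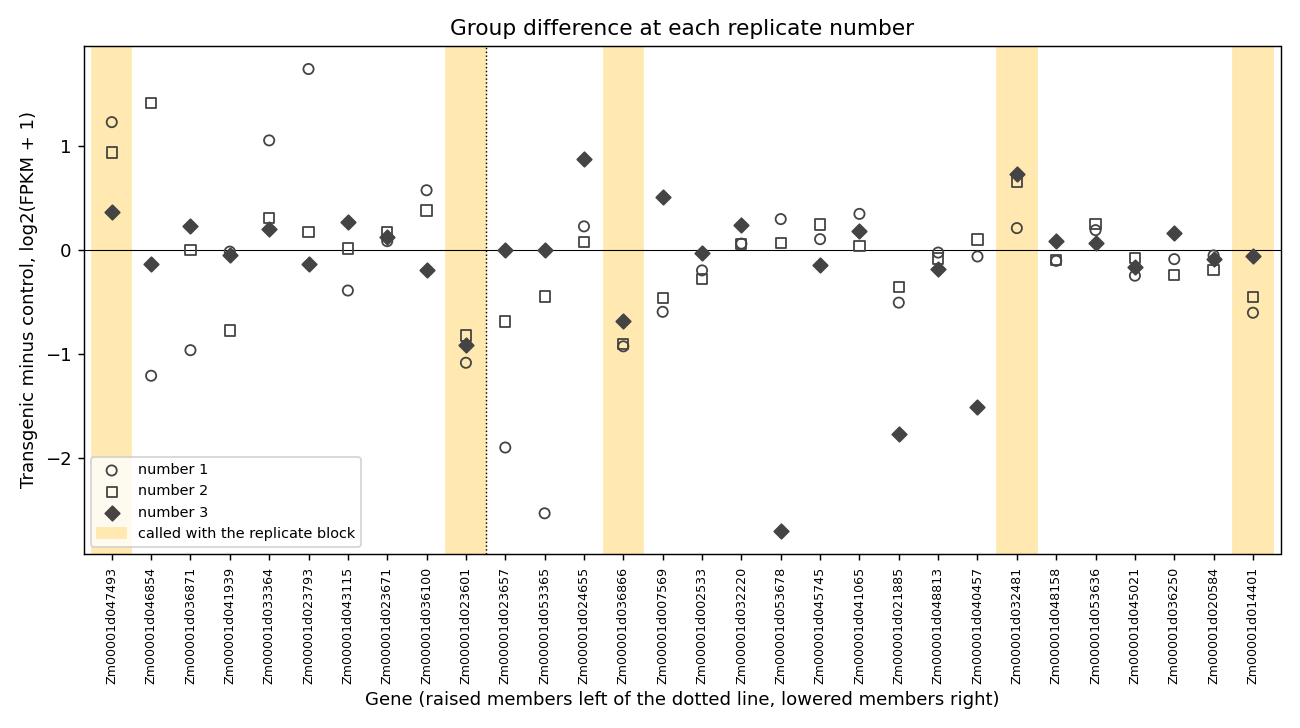
Difference between the transgenic and the control library of the same replicate number, in log2(FPKM + 1), for each of the 30 genes, with raised genes left of the dotted line and lowered genes right of it. Shaded columns mark the 5 genes called by limma with the replicate block; in Zm00001d023601 and Zm00001d036866 the 3 points lie close together below zero.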

How the data were processed

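For each library the authors deposited FPKM values in a table of its own, per the file headers, with 2 decimals. The sources used here do not say which aligner, counting tool, genome build or annotation was used, and the submitters' processing notes mention DESeq2 with no role. Fragment totals are not given, so no counting interval was computed. Summed FPKM was 1359751 to 1378937 per library. The most frequent ratio of values from 1 to 3 FPKM to control 1 was 0.983 to 1.00, searched within 20%. Equal values at 2 decimals can favour a ratio of 1, so this ratio does not settle the scale of the libraries. Median-ratio size factors were 1.07, 1.06 and 1.04 in controls 1 to 3 and 0.956, 0.957 and 0.949 in transgenic 1 to 3.

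The members, lists and tests were chosen with earlier results of these data known. No fit was made on replicate 3 against replicates 1 and 2. The groups were fitted in R 4.3.3 with limma 3.58.1 on log2(FPKM + 1) for the 20514 genes averaging 1 FPKM or more (trended moderated variance, 2-sided, Benjamini-Hochberg, threshold 0.05). Fold changes on this scale understate those of low genes. The model was tried on simulated data with 200 changed genes. Without a block it recovered 62.1%, 95.8% and 98.6% of changes of 1.5, 2 and 4 times, at the same threshold. With a block, and a number effect simulated at the size of the residual spread, it recovered 30.3%, 73.8% and 94.2%. In this simulation many smaller changes were thus missed with the block. Its residual spread was taken within groups, where any real number effect was already included, and only 200 of 20514 genes were changed. These shares therefore need not hold for the data. The replicate 3 shift of the members was not simulated. Centred on each group's mean, libraries sharing a number had correlations across genes of 0.13, 0.12 and 0.33 (0.12, 0.085 and 0.26 without the members), the first 3 all over the limit of 0.1 for using the number as a block in an alternative. Control 2 with transgenic 1 (0.105) and control 1 with transgenic 2 (0.085) were about as high, so the values set number 3 apart and do not decide a pairing of numbers 1 and 2; a fit with a term for number 3 alone was added. No label states a pairing. The 11 gene lists by symbol had no matching ID and were not used. The planned permutation test of summed FPKM was left out, since the members were chosen by value.

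Genes given in full were those of largest ratio and highest mean, those passing the group test, those next to the fold limit and the 3 most alike per set; the remaining members are given by range, and some with full values beyond this rule were chosen after their values were seen.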

Additional observations from a re-analysis of the deposited data

How the results depend on the processing

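The counts of members follow from the limits. With a minimum mean of 1 FPKM 47 genes were raised and 73 lowered, with no minimum but values above 0 in every library 58 and 127, and with a minimum of 10 FPKM 4 and 13. A fold of 1.3 gave 22 and 37, and a fold of 2 gave 6 and 6. Median-ratio rescaling, rescaling without the 20 most abundant genes, quantile normalization and a pseudocount of 1 gave 10 to 15 raised and 16 to 19 lowered genes, with all 10 raised and 16 to 19 of the 20 lowered members among them. Leaving out 1 library gave 10 to 18 raised genes (18 without control 1 and 18 without transgenic 3) and 20 to 44 lowered genes (44 without control 3, 33 without transgenic 3, 31 without transgenic 2). All 30 members were kept without any library of numbers 1 and 2, but 7 of the 10 raised and 10 of the 20 lowered members without control 3, and 9 and 14 without transgenic 3, because the groups of the others then no longer overlap, which the rule asks. The number of members called between the groups was 0 in the fit on deposited values, 5 with the replicate block, 8 with a term for number 3 alone and 7 with the block and median-ratio rescaling (the last 2 added after seeing the data), and 7 with replicate 3 of both groups left out. None was called under the 3 scalings, both smaller pseudocounts, no filter or the filter of 5 FPKM, and 0 without any single library. Over all genes, single libraries left out gave 2331 to 3316 calls (2331 without control 1, 2345 without control 2, 2470 without transgenic 2). Scaling moved the split of calls, 591 higher and 3316 lower on deposited values, to 1273 and 1521 with median-ratio rescaling. Depth limits the genes near 0, where a listed 0 need not mean absence.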

Other observations

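Below the level of the members, 33 genes with a mean of 1 to 5 FPKM lay within 5 ID numbers of a member, a look added after seeing the data. Of these, 1 departed upward and 1 downward by at least 0.5 in log2(FPKM + 1) in replicate 3 of both groups, or 6.06%, against 79 upward and 103 downward of all 7790 genes at this level, or 2.34%. They were Zm00001d053364 and Zm00001d036872, both already given in the stretches chosen after their values were seen. Each departed opposite to the member next to it by ID, and no conclusion is drawn from the share. Zm00001d053366, on the other side of Zm00001d053365, had 6.26, 2.61 and 0 FPKM in the controls and 3.76, 5.26 and 4.93 FPKM in the transgenic libraries, so it was listed at 0 in control 3 and not in transgenic 3.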
